A study of Homo sapiens with 8 samples.

Results

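The 4 RNA-seq libraries of myeloma cells carrying a CTBP2 vector were compared with each other by the cell line whose genes they express, and the differences found were set beside those between the 4 empty vector libraries, 8 libraries in all. A CTBP2 library was placed on the NCI-H929 side if FGFR3 (Entrez Gene 2261) exceeded 10 FPKM (a read count scaled by transcript length and library size) and on the MM.1S side if CCND2 (Entrez Gene 894) did, so the members were chosen by their measured FGFR3 and CCND2, with 2 libraries on each side. MM.1S and NCI-H929 are established human multiple myeloma lines, and each stands for a single tumour. Both were transduced by lentivirus with an empty vector (EV) or a CTBP2 vector and taken after 72 hours, with 2 libraries per line and vector that the submitters call biological duplicates. The promoter driving CTBP2 is not given in the sources used here.

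The labels and the measured genes disagreed about the line in both CTBP2 replicate 2 libraries. FGFR3 stood at 22.2 FPKM in the replicate 2 library labelled MM.1S CTBP2 and at 0.04 in the one labelled NCI-H929 CTBP2, against 0.047 and 13.6 in replicate 1 of MM.1S and NCI-H929. CCND2 stood at 0.058 and 60.7 FPKM in those replicate 2 libraries and at 46.7 and 0.063 in replicate 1. The lowest values above the limit were thus 13.6 FPKM for FGFR3 and 46.7 for CCND2, and the highest below it 0.047 and 0.063. Over 12583 genes the replicate 2 library labelled NCI-H929 had a Pearson r of 0.985 with replicate 1 of MM.1S CTBP2 and of 0.813 with replicate 1 of NCI-H929 CTBP2. The one labelled MM.1S had an r of 0.962 with replicate 1 of NCI-H929 CTBP2 and of 0.806 with that of MM.1S CTBP2. Genes are not independent replicates, so these values are descriptions. Whether the labels or the columns are at fault was not tested.

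FGFR3-high here means NCI-H929 CTBP2 replicate 1 and the replicate 2 library labelled MM.1S CTBP2, and CCND2-high means MM.1S CTBP2 replicate 1 and the replicate 2 library labelled NCI-H929 CTBP2, with values in this order. Because measured values made this split, differences between the sides are descriptions with no test. FGFR3 and CCND2 themselves are counted among all genes below, and their separation is fixed by the rule. Tests used limma on log2(FPKM + 1) over the 6 libraries whose label and genes agree, which are 4 EV and 2 CTBP2 replicate 1 libraries. Its p-values were adjusted by Benjamini-Hochberg over 12583 genes, with a threshold of 0.05. The single CTBP2 library of each line was assumed to vary like the EV libraries. All differences are NCI-H929 side minus MM.1S side on that log2 scale. The ± is limma's moderated standard error, which also draws on the spread of other genes. For EV differences it stands for 2 EV libraries a line. For changes it covers 2 EV libraries and 1 CTBP2 library a line.

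CTBP2 is a corepressor: it binds DNA-bound factors that carry a short peptide motif and brings histone-modifying enzymes to their target genes. Myeloma is a cancer of plasma cells, and many cases start with a translocation into the immunoglobulin heavy chain locus. NCI-H929 carries the one that drives FGFR3 and WHSC1, and MM.1S the one that drives the transcription factor MAF, whose targets include CCND2 and the integrin gene ITGB7.

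Estimated depth was 16000000 to 21000000 fragments a library, and the top feature held 2.9 to 16.3% of all FPKM. Plasma cell genes were expressed throughout: the transcription factor IRF4 ranged over 59.7 to 160.3 FPKM, the surface proteoglycan SDC1 over 191.6 to 344.7 and the survival receptor TNFRSF17 over 138.7 to 743.7. CTBP2 (Entrez Gene 1488) was at most 0.213 FPKM in the EV libraries, 5884.3 and 3427 in FGFR3-high and 2145.3 and 1620.7 in CCND2-high. Both FGFR3-high libraries thus held more CTBP2 RNA, by 1.27 (log2), and its part in the differences below was not tested.

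The other translocation genes stayed on their side under CTBP2. WHSC1, a histone methyltransferase, was present at 32.9 and 28 FPKM in MM.1S EV, 18 and 20.8 in CCND2-high, 65 and 85.6 in NCI-H929 EV and 106.3 and 151.7 in FGFR3-high. The lines did not overlap with either vector, and the difference was 1.27 ± 0.19 (limma adjusted p = 0.00162) with EV and 2.65 under CTBP2. MAF reached 162.9 and 142.7 FPKM in MM.1S EV, 256.9 and 191.5 in CCND2-high, 18.3 and 19.9 in NCI-H929 EV and 27.9 and 30.6 in FGFR3-high, a difference of -2.93 ± 0.16 with EV and -2.88 under CTBP2. ITGB7 differed by -1.42 ± 0.26 and -1.67. CCND1, a D-type cyclin, was higher on the NCI-H929 side by 1.66 ± 0.30 with EV and 2.77 under CTBP2, where CCND2-high held 0.687 and 1.83 FPKM against 3.16 and 6.96 in MM.1S EV. In the replicate 1 libraries the difference changed by 1.23 ± 0.33 in WHSC1 and 1.54 ± 0.51 in CCND1, and neither change passed the limma threshold. IRF4 differed little between the lines (-0.03 ± 0.17 with EV, limma adjusted p = 0.901, and 0.15 under CTBP2, where the sides did not overlap), with 154 and 142.8 FPKM in MM.1S EV, 131.9 and 160.3 in NCI-H929 EV, 59.7 and 63.2 in CCND2-high and 66.8 and 69.6 in FGFR3-high.

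**Figure D1:**
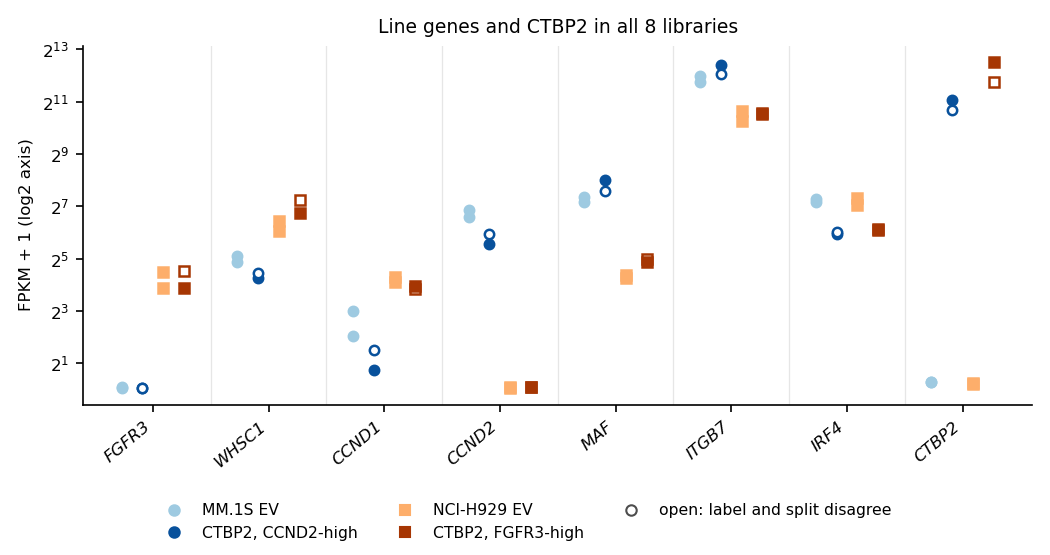
FPKM + 1 on a log2 axis for genes that mark the lines and CTBP2, 1 point per library, with circles for the MM.1S side, squares for the NCI-H929 side, pale for EV and dark for CTBP2. Open symbols mark the 2 libraries whose label disagrees with the split: FGFR3 at 22.2 FPKM under an MM.1S label and CCND2 at 60.7 under an NCI-H929 label.

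Most line differences were still present under CTBP2. With EV limma called 6860 of 12583 genes (54.5%), 2978 higher in NCI-H929 (23.7%) and 3882 higher in MM.1S (30.9%). Of the 3070 called genes that differed by at least 1 (24.4%), 3024 (98.5%) had the same sign between the CTBP2 sides, and in 2913 the sides also did not overlap. The replicate 1 libraries alone gave the same sign in 3021, and the replicate 2 pair, read by FGFR3 and CCND2, in 2960.

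Between the CTBP2 sides 3066 genes (24.4%) lay apart by at least 1, 1544 higher in FGFR3-high (12.3%) and 1522 in CCND2-high (12.1%). The EV libraries lay apart by as much in 3080 genes (24.5%), and 2199 genes (17.5%) did so under both vectors in the same direction. In the replicate 1 libraries limma called 4970 genes (39.5%). The median size of a difference was 0.545 with EV and 0.533 under CTBP2, and the r across genes between both sets of differences was 0.886. Line differences of the replicate 1 and replicate 2 pairs had an r of 0.825 read by the split and of -0.825 read by the labels. In bulk RNA, fewer cells of a type and less RNA per cell cannot be told apart.

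Genes were then sorted by how far the difference moved. A called EV difference of at least 1 was counted as kept if the CTBP2 sides lay apart by at least 1 in the same direction and its size moved by less than 1 (2012 genes, 16.0%, with 922 or 7.33% higher in NCI-H929 and 1090 or 8.66% higher in MM.1S), and as narrowed if, measured in the direction it had with EV, it was smaller by at least 1 (223 genes, 1.77%), which takes in a difference that changed sides. A called difference was widened if the sides lay apart and it was larger by at least 1 (162 genes, 1.29%). Genes not called and under 0.5 with EV appeared if the CTBP2 sides lay apart by at least 1 (210 genes, 1.67%). A further 745 called differences (5.92%) fell between these limits. These classes were set on the values themselves, so counts within them are descriptions.

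The change of the difference, tested in the replicate 1 libraries, passed in 44 genes (0.350%), 31 upward (0.246%) and 13 downward (0.103%) in NCI-H929 minus MM.1S, and at an unadjusted p under 0.05 in 1631 (13.0%). The 44 held 14 widened, 14 appeared, 9 narrowed and 0 kept genes, and 40 had the same sign in the replicate 2 pair read by its genes. Both changes subtract the same EV difference, so this agreement is partly built in and is no independent replication. The count was 0 without either MM.1S EV library (1350 and 1225 at an unadjusted p under 0.05) and 12 and 14 without NCI-H929 EV replicate 1 and 2. Of 3080 genes apart with EV 224 were smaller by at least 1 under CTBP2 and 92 larger. Of 3066 genes apart under CTBP2 294 were smaller with EV and 92 larger. Genes picked for a large difference in 1 set tend to be smaller in the other, so these counts show no general shrinking. The SD of the difference over all genes was 1.14 with EV and 1.13 under CTBP2.

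**Figure D2:**
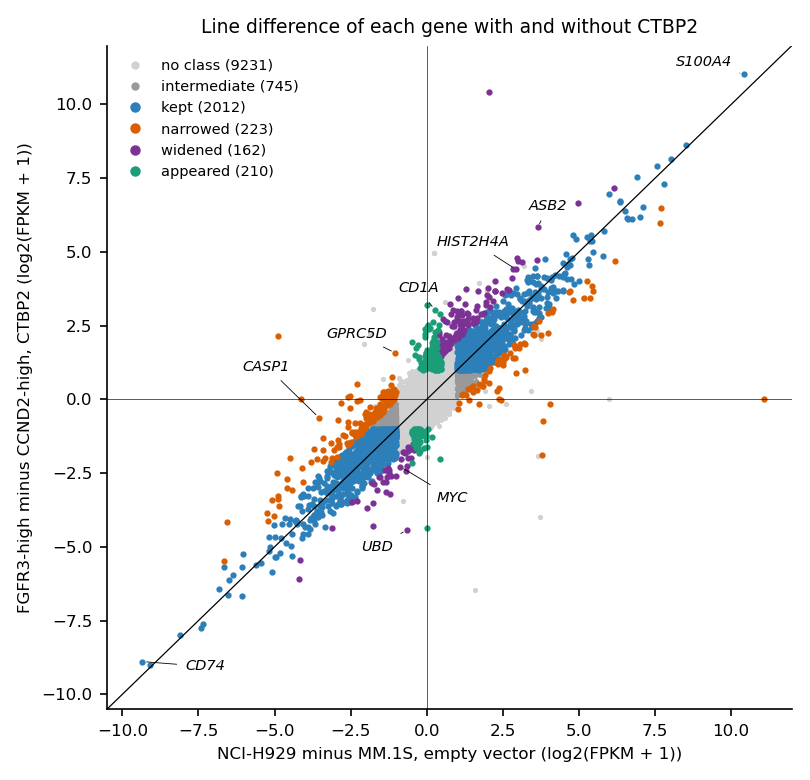
Each point is 1 of 12583 genes, with the line difference under EV on the x axis and between the CTBP2 sides on the y axis, both in log2(FPKM + 1) and coloured by class. The r across genes is 0.886, and 16 of the 17 features that moved by more than 4 are short RNAs.

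The largest kept differences were genes that one line expressed strongly and the other hardly at all. S100A4, which encodes a calcium-binding protein, was found at 1595.1 and 1796.7 FPKM in NCI-H929 EV and 1969.8 and 3563.4 in FGFR3-high, against 0 to 0.526 in the other 4 libraries. Its difference was 10.42 ± 0.22 (limma adjusted p = 1e-06) with EV and 11.02 under CTBP2. NES, the intermediate filament nestin, reached 537.5 and 519.8 FPKM in NCI-H929 EV and 383.7 and 540.5 in FGFR3-high, with at most 0.496 on the MM.1S side. CDKN2C, the cyclin-dependent kinase inhibitor p18, reached 114.5 and 123.5 and then 177 and 203 FPKM, with at most 0.046 on the MM.1S side. The cytokine gene IL32 differed by 7.78 ± 0.27 and 7.29. In all 4 genes the sides did not overlap with either vector.

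Kept genes of MM.1S included LAPTM5, a lysosomal membrane protein of blood cells, which stood at 570.2 and 649.5 FPKM in MM.1S EV, 936.3 and 892.6 in CCND2-high, 0.07 and 0.156 in NCI-H929 EV and 0.436 and 1.21 in FGFR3-high. CD74, the invariant chain of MHC class II, reached 907.7 and 725.5 FPKM in MM.1S EV and 678.5 and 530.4 in CCND2-high, with at most 0.317 on the NCI-H929 side. The tetraspanin CD9 differed by -7.34 ± 0.14 and -7.63, QPCT, a glutaminyl cyclase, by -7.42 ± 0.16 and -7.75, and PCP4, a calmodulin-binding peptide, by -8.11 ± 0.22 and -7.99. CRYBB1, a lens crystallin gene, varied more within groups, with 103.4 and 231.5 FPKM in MM.1S EV, 323.2 and 449.7 in CCND2-high, 0.482 and 0.937 in NCI-H929 EV and 4.29 and 1.8 in FGFR3-high.

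Cancer-testis antigens, germline genes that tumours re-express, that passed the filter were mostly higher on the NCI-H929 side. Only 20 of 39 in the table passed the filter of 1 FPKM in 2 libraries, which a gene can pass through one line alone. Of these 16 were called higher in NCI-H929 (23.7% of all genes) and 1 in MM.1S with EV. Under CTBP2 16 and 0 lay apart by at least 1 (12.3% and 12.1% of all genes). By class 14 were kept and 2 narrowed (16.0% and 1.77% of all genes). Over the 38 members that enter without the filter the median difference was 0.45 with EV and 0.42 under CTBP2, beside -0.10 and -0.09 over all genes tested. MAGEA4 reached 198.9 and 185.9 FPKM in NCI-H929 EV and 279.8 and 211.3 in FGFR3-high, with at most 0.036 elsewhere. PAGE5 differed by 8.01 ± 0.18 and 8.14, and MAGEA3 by 7.09 ± 0.16 and 6.52. CTAG1B was lower in FGFR3-high, with 112 and 72.6 FPKM against 223.9 and 202 in NCI-H929 EV, and narrowed from 7.70 ± 0.15 to 6.48. Its change in the replicate 1 libraries did not pass (-0.94 ± 0.26). MAGEA3 and CTAG1B have near-identical copies that can share reads.

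Of 28 p53 and CDK inhibitor genes tested 12 (42.9%) were kept (16.0% of all genes) and 1 narrowed. CDKN2A, an inhibitor of the G1 kinases, reached 42.3 and 38.4 FPKM in NCI-H929 EV and 63.6 and 41.1 in FGFR3-high, with at most 0.417 elsewhere. Of 32 glycolysis and hypoxia genes 8 (25.0%) were kept, 1 narrowed and 1 widened. PFKP, a phosphofructokinase, differed by 6.75 ± 0.16 and 6.12, and BNIP3, a mitophagy receptor, by 4.49 ± 0.16 and 3.71. On the other side ENO2, an enolase, reached 122.8 and 130.2 FPKM in MM.1S EV and 109.4 and 148 in CCND2-high against 13.6 to 15.8 elsewhere, and the peptide hormone gene ADM differed by -6.38 ± 0.18 and -5.96.

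NF-kB pathway genes that differed were mostly higher on the MM.1S side. Of 31 tested, 18 were called higher in MM.1S and 2 in NCI-H929 with EV (30.9% and 23.7% of all genes), and 15 and 2 lay apart by at least 1 under CTBP2 (12.1% and 12.3%). By class 14 (45.2%) were kept (16.0% of all genes), 0 narrowed and 17 fell in no class. TNFAIP3, an inhibitor of the pathway, had 47.1 and 42.1 FPKM in MM.1S EV, 38.1 and 35.1 in CCND2-high, 2.15 and 1.46 in NCI-H929 EV and 2.07 and 3.99 in FGFR3-high. IL2RG, the common cytokine receptor chain, differed by -6.50 ± 0.17 and -6.14, and the TNF receptor TNFRSF1A by -3.23 ± 0.17 and -3.61. The list's median was -0.74 with EV and -0.75 under CTBP2.

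Of 21 BCL2 family genes, which set the threshold for apoptosis, 16 passed the filter. Of these 6 (37.5%) were kept (16.0% of all genes) and 1 narrowed. BCL2L1, which encodes the survival protein BCL-XL, had 149.7 and 179.4 FPKM in MM.1S EV, 230.5 and 255.3 in CCND2-high, 20.6 and 26 in NCI-H929 EV and 32.1 and 34.7 in FGFR3-high. BCL2 ranged over 9.75 to 16.4 FPKM on the MM.1S side and 0.536 to 2.19 on the other. Of 18 MAF-associated genes 10 (55.6%) were kept (16.0% of all genes) and 0 narrowed. The kept ones included CCND2, whose separation the rule fixed, RGS1, a regulator of G protein signalling (-4.42 ± 0.50 and -5.31), and the lamin gene LMNA (4.71 ± 0.18 and 4.76).

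Of 31 FGFR, RAS and ERK feedback genes 10 (32.3%) were kept (16.0% of all genes) and 1 narrowed. ETV4, an ETS factor of the ERK pathway, was the narrowed one, with 40.8 and 22.1 FPKM in NCI-H929 EV, 20.8 and 7.92 in FGFR3-high and at most 0.378 elsewhere. Its change in the replicate 1 libraries did not pass (-0.82 ± 0.48). Of 31 plasma cell and B cell transcription factors 6 (19.4%) were kept, near the share of all genes, and 0 narrowed. ID3, an inhibitor of E proteins, differed by 3.61 ± 0.21 and 4.20, and TCF4, an E protein, by -2.33 ± 0.18 and -2.29.

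Among the 223 narrowed genes the NCI-H929 side moved more in 184 and the MM.1S side in 39. The line with less RNA came up more in 125, and the line with more came down more in 98. Of the 148 that were higher in MM.1S with EV (1.18% of all genes), both FGFR3-high libraries lay above both NCI-H929 EV libraries in 125 (37.0% of all genes did), and both CCND2-high libraries lay below both MM.1S EV ones in 71 (31.3% of all genes). Of the 75 that were higher in NCI-H929 (0.596%), both FGFR3-high libraries lay below both NCI-H929 EV ones in 64 (31.0% of all genes). The limits of the class favour such moves, so the shares of all genes are no measure of what to expect. How often the NCI-H929 side moved more over all genes was not counted, so the 184 of 223 do not single out that line. Both CCND2-high libraries lay above both MM.1S EV ones in 31.6% of all genes. Short RNA features made up 16 of the 223, 2 of the 2012 kept genes and 75 of all 12583 (0.6%). RPL21, a ribosomal protein gene with many near-identical copies, narrowed with 14.6 and 0.015 FPKM in MM.1S EV, 0.011 and 13.1 in CCND2-high, 105.6 and 27.8 in NCI-H929 EV and 0.013 and 0.011 in FGFR3-high. Its change in the replicate 1 libraries did not pass (-3.79 ± 2.07).

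CASP1 (Entrez Gene 834), the protease that inflammasomes activate, had 20.9 and 24.1 FPKM in MM.1S EV, 31.6 and 31.5 in CCND2-high, 1.09 and 0.935 in NCI-H929 EV and 18.8 and 21.5 in FGFR3-high. FGFR3-high overlapped MM.1S EV and stayed below CCND2-high. The difference was -3.54 ± 0.16 with EV and -0.62 under CTBP2, and its change passed (2.82 ± 0.27, limma adjusted p = 0.02). CARD16, a CARD-only relative of CASP1, had 13.2 and 12.7 FPKM in MM.1S EV, 18.6 and 17.6 in CCND2-high, 0.982 and 1.92 in NCI-H929 EV and 16.7 and 23 in FGFR3-high, and its change did not pass (2.39 ± 0.36, limma adjusted p = 0.0613). The 2 genes are close in sequence and can share reads.

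CTSZ, a lysosomal cathepsin, had 24.2 and 19.9 FPKM in MM.1S EV, 23.9 and 13.8 in CCND2-high, 3.27 and 4.06 in NCI-H929 EV and 27 and 26.6 in FGFR3-high, so that FGFR3-high was above CCND2-high. The change passed (2.47 ± 0.30, limma adjusted p = 0.0415). CD70, the ligand of CD27, was lower with CTBP2 on the MM.1S side and higher on the other, with 52.1 and 71.4 FPKM in MM.1S EV, 22.8 and 32.4 in CCND2-high, 0.975 and 1.17 in NCI-H929 EV and 3.87 and 4.26 in FGFR3-high. Its sides stayed apart, by -2.48 after -4.91 ± 0.19 with EV, and the change passed (2.62 ± 0.33, limma adjusted p = 0.0451). TREML2, a receptor of the TREM family, went from -2.57 ± 0.26 to 0.07, with 3.87 to 4.35 FPKM over the 4 CTBP2 libraries, and the change did not pass (limma adjusted p = 0.0857).

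GPRC5D, a plasma cell surface receptor and immunotherapy target, was the 1 gene called at 1 or more with EV whose CTBP2 sides lay apart by 1 or more the other way. It had 104.9 and 69.8 FPKM in MM.1S EV, 6.2 and 6.69 in CCND2-high, 39.7 and 42.8 in NCI-H929 EV and 36.3 and 12.3 in FGFR3-high. The difference was -1.04 ± 0.22 (limma adjusted p = 0.00659) with EV and 1.58 under CTBP2, and the change passed (3.41 ± 0.37, limma adjusted p = 0.0295). The globin gene HBD also moved on the MM.1S side, with 35.1 and 34 FPKM in MM.1S EV, 5.25 and 7.87 in CCND2-high, 4.65 and 3.41 in NCI-H929 EV and 8.1 and 4.25 in FGFR3-high, and its change passed (3.38 ± 0.30, limma adjusted p = 0.0146).

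Narrowed genes of NCI-H929 included GAL, the neuropeptide galanin, with 53.7 and 23 FPKM in NCI-H929 EV, 17 and 5.53 in FGFR3-high and 0 in the other 4 libraries. CTXN1, a small neuronal membrane protein, went from 14 and 11.6 FPKM in NCI-H929 EV to 2.64 and 1.66 in FGFR3-high, and its difference from 2.94 ± 0.16 to 0.91. GALNT18, a glycosyltransferase, had overlapping sides under CTBP2 (11.1 and 6.2 against 5.83 and 11.8 FPKM) after 2.39 ± 0.28 with EV, as did PRR22 (0.286 and 0.912 against 0.399 and 1.15) after 1.73 ± 0.20. The changes of these 4 genes did not pass (limma adjusted p = 0.0754 to 0.543).

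Of 13 MHC class II genes, which present antigen to helper T cells, 10 were called higher in MM.1S and 0 in NCI-H929 with EV (30.9% and 23.7% of all genes). Under CTBP2 8 and 1 lay apart by at least 1 (12.1% and 12.3%). By class 6 were kept, 3 narrowed and 1 appeared (16.0%, 1.77% and 1.67% of all genes). HLA-DRA had 188 and 106.5 FPKM in MM.1S EV, 104.2 and 63 in CCND2-high, 0.674 and 0.388 in NCI-H929 EV and 2.55 and 4.93 in FGFR3-high, and went from -6.55 ± 0.27 to -4.16. HLA-DPA1 went from -4.58 ± 0.25 to -2.69, and the class II transactivator CIITA from -1.86 ± 0.17 to -0.75. In the replicate 1 libraries the change was 1.66 ± 0.47 in HLA-DRA and 2.02 ± 0.43 in HLA-DPA1. The changes of HLA-DRA, HLA-DPA1 and CIITA did not pass. HLA-DQB1 appeared instead, with 3.13 and 2.94 FPKM in FGFR3-high and 0.11 to 0.274 in the other 6, and its change passed (1.72 ± 0.22, limma adjusted p = 0.046). CIITA and HLA-DQB1 were named after their values were seen, and HLA genes vary between people and share sequence, so their reads can be lost or shared.

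Of 49 adhesion and homing genes in the table, the filter was passed by 30. Of these 17 were called higher in MM.1S (30.9% of all genes) and 4 in NCI-H929 with EV, and 7 and 3 lay apart by at least 1 under CTBP2 (12.1% and 12.3% of all genes). Without the filter the median of 47 members was -0.10 with EV and -0.06 under CTBP2. By class 5 (16.7%) were kept (16.0% of all genes), 5 narrowed, 1 widened and 1 appeared (1.77%, 1.29% and 1.67% of all genes). CXCR4, the chemokine receptor for bone marrow homing, had 34.2 and 44.6 FPKM in MM.1S EV, 38.8 and 42.6 in CCND2-high, 0.098 and 0.394 in NCI-H929 EV and 0.332 and 4.44 in FGFR3-high. Its narrowing from -5.02 ± 0.20 to -3.95 came with the high value of the replicate 2 library labelled MM.1S CTBP2, and the replicate 1 libraries gave a change of 0.12 ± 0.35. ITGA4, an integrin alpha chain, widened from 1.35 ± 0.24 to 2.51. Its change in the replicate 1 libraries did not pass (0.56 ± 0.41). Outside this list, the surface antigen gene TNFRSF13B, a receptor for the survival factors BAFF and APRIL, narrowed from -6.67 ± 0.18 to -5.48. That change did not pass in the replicate 1 libraries either (1.21 ± 0.32).

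Widened differences favoured FGFR3-high in 120 genes (0.954%) and CCND2-high in 42 (0.334%). In 111 of the 120 both FGFR3-high libraries lay above the other 6 (14.1% of all genes did), a position that the class limits favour. ASB2, a substrate receptor of a ubiquitin ligase, had 3.03 and 3.58 FPKM in MM.1S EV, 1.73 and 2.43 in CCND2-high, 57.1 and 49.3 in NCI-H929 EV and 161.1 and 185.8 in FGFR3-high, and its change passed (2.24 ± 0.28, limma adjusted p = 0.043). The neurotrophin NTF3 was listed at 0 on the whole MM.1S side, with 0.707 and 0.704 FPKM in NCI-H929 EV and 5.89 and 12 in FGFR3-high, and its change passed (2.01 ± 0.21, limma adjusted p = 0.0268). APOBR, a lipoprotein receptor, had 2.16 and 1.43 and then 12 and 21.8 FPKM, with at most 0.305 on the MM.1S side.

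FCGR2B, the inhibitory Fc receptor of B cells, lay above EV on both sides, with 0.283 and 0.177 FPKM in MM.1S EV, 3.62 and 1.58 in CCND2-high, 0.669 and 0.887 in NCI-H929 EV and 16.8 and 27.8 in FGFR3-high. DMBT1, a scavenger receptor, differed within FGFR3-high (4.37 and 25.7 FPKM), and CALHM3, of an ion channel family, had 8.36 and 10.6 FPKM there against 0.564 and 1.27 in NCI-H929 EV. The changes of APOBR, FCGR2B, DMBT1 and CALHM3 did not pass (limma adjusted p = 0.053 to 0.379).

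On the MM.1S side UBD, which encodes the cytokine-induced ubiquitin-like protein FAT10, had 0.821 and 0.361 FPKM in MM.1S EV, 48.6 and 19.9 in CCND2-high, 0 and 0 in NCI-H929 EV and 0.485 and 0.511 in FGFR3-high. Its difference was -0.65 ± 0.17 with EV and -4.43 under CTBP2, and the change passed (-4.41 ± 0.30, limma adjusted p = 0.00338). SCNN1G, a sodium channel subunit, had 14.1 and 23.2 FPKM in MM.1S EV and 72.8 and 85.1 in CCND2-high, with at most 0.195 elsewhere. The keratin gene KRT15 had 1.64 and 3.46 and then 21.3 and 17.5 FPKM, the acetylcholine receptor subunit gene CHRNA1 1.17 and 2.03 and then 16.5 and 15.5, and FRMD3 1.12 and 2.5 and then 9.91 and 9.72.

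SLC29A1, a nucleoside transporter, widened through the other side, with 84.2 and 94.7 FPKM in MM.1S EV, 63.5 and 76.1 in CCND2-high, 59 and 50.9 in NCI-H929 EV and 15.3 and 9.34 in FGFR3-high. The changes of SCNN1G, KRT15, CHRNA1, FRMD3 and SLC29A1 did not pass (limma adjusted p = 0.0633 to 0.153).

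MYC, the growth-promoting transcription factor, had 189.9 and 188 FPKM in MM.1S EV, 133.9 and 138.7 in CCND2-high, 114.6 and 92.9 in NCI-H929 EV and 27.8 and 26.8 in FGFR3-high. FGFR3-high lay below the other 6 libraries and CCND2-high below MM.1S EV. The difference was -0.87 ± 0.17 (limma adjusted p = 0.0055) with EV and -2.28 under CTBP2, and its change did not pass (-1.36 ± 0.30, limma adjusted p = 0.143). Among 50 MYC target and ribosome biogenesis genes 14 were called higher in NCI-H929 and 5 in MM.1S with EV (23.7% and 30.9% of all genes). By class 2 were kept and 0 narrowed (16.0% and 1.77% of all genes), and the list's median went from 0.30 to -0.20.

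The line difference was lower under CTBP2 in 50 of these 50 genes, against 6066 of all 12583, in 46 after quantile normalization and in 43 with equal library totals. It was lower in 41 without the replicate 2 library labelled MM.1S CTBP2 and in 44 without the one labelled NCI-H929 CTBP2, where the CTBP2 median turned to 0.05. With EV the median was 0.11 to 0.48 with 1 EV library left out, the ends without NCI-H929 EV replicate 1 and 2. Called changes numbered 0. All 50 lay lower in both FGFR3-high libraries than in NCI-H929 EV (31.0% of all genes), by a median of -1.33, and 47 lower in CCND2-high than in MM.1S EV (31.3% of all genes), by -0.73. BOP1, a factor of large ribosomal subunit assembly, had 63 and 94.5 FPKM in MM.1S EV, 37.5 and 53.9 in CCND2-high, 26.1 and 21.1 in NCI-H929 EV and 12.9 and 8.46 in FGFR3-high. NOP2, a ribosomal RNA methyltransferase, went from -0.85 ± 0.17 to -1.61, and the ribosome biogenesis factor GRWD1 from 1.85 ± 0.24 to 1.32.

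DNA replication and mitosis genes had medians below 0 on both sides. Of 45 DNA replication and G1/S genes 39 were lower in both FGFR3-high libraries than in NCI-H929 EV and 45 in CCND2-high than in MM.1S EV, and of 40 mitosis and G2/M genes 24 and 40 (31.0% and 31.3% of all genes). The 45 DNA replication and G1/S genes had a median of -1.10 for FGFR3-high minus NCI-H929 EV and -1.06 for CCND2-high minus MM.1S EV, and a median line difference of -0.36 with EV and -0.43 under CTBP2. The 40 mitosis and G2/M genes had -0.84 and -0.80, and -0.46 and -0.52. CDK1, the mitotic kinase, had 73.2 and 72.8 FPKM in MM.1S EV, 31.8 and 43 in CCND2-high, 28 and 19 in NCI-H929 EV and 13.6 and 5.46 in FGFR3-high. The CTBP2 medians moved with single libraries: without the replicate 2 library labelled MM.1S CTBP2 that of the DNA replication list was 0.02 and that of the mitosis list 0.13, without NCI-H929 CTBP2 replicate 1 -0.91 and -1.06, without the replicate 2 library labelled NCI-H929 CTBP2 -0.06 and -0.34, and without MM.1S CTBP2 replicate 1 -0.85 and -0.55. No direction of the line difference under CTBP2 can be given for either list. The kept genes numbered 6 (13.3%) and 7 (17.5%), near the 16.0% of all genes, and 0 narrowed.

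Differences that appeared favoured FGFR3-high in 154 genes (1.22%) and CCND2-high in 56 (0.445%). In 144 of the 154 both FGFR3-high libraries lay above the other 6 (14.1% of all genes), which the class limits favour here too. CD1A, which presents lipid antigens, had 0 and 0 FPKM in MM.1S EV, 0.437 and 0.183 in CCND2-high, 0.126 and 0.28 in NCI-H929 EV and 13.3 and 7.08 in FGFR3-high, and its change passed (3.05 ± 0.23, limma adjusted p = 0.00586). HSPA7, an HSP70-related gene, had 3.54 and 9.72 FPKM in FGFR3-high and at most 0.403 in the other 6, and its change passed (1.68 ± 0.22, limma adjusted p = 0.046); other HSP70 genes can share its reads.

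The 6 named genes that appeared on the CCND2-high side had their lowest values in FGFR3-high. The growth factor gene PDGFB had 7.29 and 8.42 FPKM in MM.1S EV, 9.92 and 14 in CCND2-high, 9.43 and 12.5 in NCI-H929 EV and 2.22 and 2.1 in FGFR3-high. CCDC86 had 29.6 and 27.2 FPKM in FGFR3-high and 92.5 to 156.9 in the other 6, SPNS2, a sphingosine-1-phosphate transporter, 4.15 and 4.46 and 10.9 to 17.8, and DUSP2, a MAP kinase phosphatase, 1.95 and 1.41 and 3.95 to 9.08. MRPL14, of the mitochondrial ribosome, had 49.8 and 37.2 and 71 to 147.5. In SUSD3 CCND2-high was also higher than MM.1S EV, with 30.1 and 27.5 against 16.6 and 14.7 FPKM, beside 8.52 and 8.58 in FGFR3-high. None of these 6 changes passed (limma adjusted p = 0.0559 to 0.433).

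**Figure D3:**
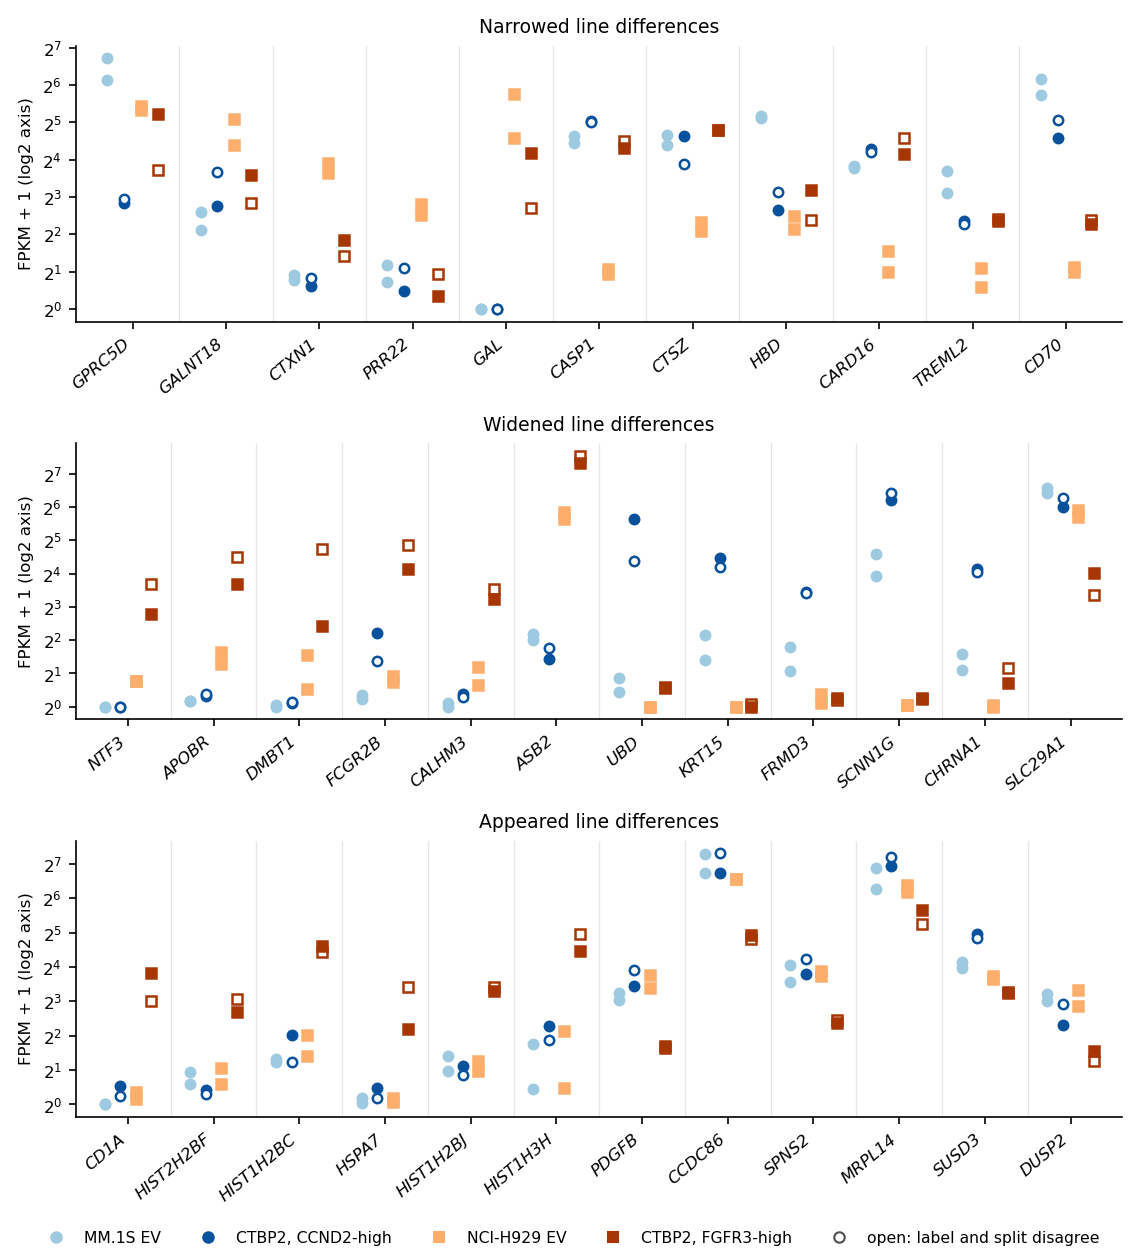
FPKM + 1 on a log2 axis for the named genes with narrowed (RPL21 left out), widened and appeared differences, 1 point per library, with circles for the MM.1S side, squares for the NCI-H929 side and open symbols for the 2 libraries whose label disagrees with the split. The FGFR3-high points of CASP1, at 18.8 and 21.5 FPKM, sit near the MM.1S points, and those of the histone genes sit above all others.

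Replication-dependent histone genes, which supply histones in S phase and mostly end in a stem-loop in place of a poly(A) tail, mostly lay apart in favour of FGFR3-high under CTBP2. Of 30 listed 25 passed the filter. With EV 11 were called higher in NCI-H929 (23.7% of all genes) and 0 in MM.1S, and under CTBP2 22 lay apart by at least 1 in favour of FGFR3-high (12.3% of all genes) and 0 of CCND2-high. By class 6 widened, 7 appeared, 4 were kept and 0 narrowed (1.29%, 1.67%, 16.0% and 1.77% of all genes). The widened and appeared genes are small parts of those classes (162 and 210 genes). Without the filter the median of all 30 was 0.52 with EV and 2.24 under CTBP2. That of the 25 was 0.86 and 2.42, and 2.25 without either replicate 2 library in turn. In 24 of 25 both FGFR3-high libraries lay above the other 6 (14.1% of all genes). Both CCND2-high libraries lay above MM.1S EV in 16 (31.6% of all genes), with a median of 0.59 against 1.97 on the other side. Called changes numbered 0.

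HIST1H2BC, an H2B gene, had 1.49 and 1.35 FPKM in MM.1S EV, 3.04 and 1.36 in CCND2-high, 1.65 and 3.07 in NCI-H929 EV and 23.6 and 20.8 in FGFR3-high. HIST1H2BJ had 8.93 and 9.7 FPKM in FGFR3-high and 0.819 to 1.65 in the other 6, and HIST1H2BG 32.9 and 58.4 and 0.208 to 9.16. FGFR3-high held the 2 highest libraries in each. HIST2H2BE widened from 1.70 ± 0.33 to 3.66, with 2.96 and 7.55 FPKM in NCI-H929 EV and 30.7 and 55.8 in FGFR3-high. The H4 gene HIST2H4A widened from 2.93 ± 0.23 to 4.41. The H3 gene HIST1H3H had 21.3 and 30.2 FPKM in FGFR3-high against 0.376 to 3.88, HIST2H2BF 5.48 and 7.42 against 0.224 to 1.07, and the H2A gene HIST1H2AM 16.1 and 16.5 against 0.643 to 2.93. Histone genes are alike and can share reads.

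Promoters of 4 of these H2B genes are shown as examples that carry the octamer described next. FGFR3-high held the 2 highest libraries in each, but also in 24 of 25 histone genes tested, so expression did not single them out. The other H2B promoters of the list are not shown. H2B promoters are known for the octamer ATTTGCAT, which the factor OCT1 binds. Searched on both strands in 250 bases before the start, it was in 7 of 9 H2B genes of the list, 13 of 25 histone genes (52.0%), 132 of 10036 promoters of genes tested (1.3%) and 454 of 27305 in the table (1.7%). The sequences are from RefSeq, build GRCh38.p14, and give 130 bases before the start, 5′ to 3′ on the gene's strand, with the octamer in capitals.
HIST1H2BC (chr6:26123927-26124056, minus strand): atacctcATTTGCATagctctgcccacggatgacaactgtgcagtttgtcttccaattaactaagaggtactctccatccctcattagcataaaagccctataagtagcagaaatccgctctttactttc
HIST1H2BJ (chr6:27132796-27132925, minus strand): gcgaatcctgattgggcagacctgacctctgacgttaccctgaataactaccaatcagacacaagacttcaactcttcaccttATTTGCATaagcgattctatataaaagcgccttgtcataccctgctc
HIST2H2BE (chr1:149886683-149886812, minus strand): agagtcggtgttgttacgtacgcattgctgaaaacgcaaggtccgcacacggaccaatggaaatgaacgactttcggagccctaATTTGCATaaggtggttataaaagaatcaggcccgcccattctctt
HIST1H2BG (chr6:26216689-26216818, minus strand): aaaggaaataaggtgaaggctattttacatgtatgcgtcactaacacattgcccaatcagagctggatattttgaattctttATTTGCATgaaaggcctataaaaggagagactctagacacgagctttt

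The octamer begins 123 bases before the start of HIST1H2BC, and 47, 46 and 48 bases before that of HIST1H2BJ, HIST2H2BE and HIST1H2BG. A match describes letters and does not show binding. The octamer was in 7 of 161 promoters of appeared (4.3%), 5 of 113 of widened (4.4%), 3 of 142 of narrowed (2.1%) and 29 of 1516 of kept genes (1.9%). These counts are small and overlap the histone list, of which 7 genes appeared and 6 widened. HIST1H2BC and HIST1H2BJ are among the appeared matches and HIST2H2BE among the widened ones. CACCTG, a site of ZEB factors that recruit CTBP proteins, was in 15.8% of promoters of genes tested, and in 12.4% of appeared, 14.2% of widened, 19.7% of narrowed and 17.6% of kept genes.

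Interferon-stimulated genes, which cells switch on in response to interferons, fell into all classes. Of 41 tested 20 were called higher in MM.1S and 7 in NCI-H929 with EV (30.9% and 23.7% of all genes), and 7 and 6 lay apart by at least 1 under CTBP2, near the shares of all genes (12.1% and 12.3%). By class 6 (14.6%) were kept (16.0% of all genes), 6 narrowed, 2 widened and 2 appeared, 3 changes were called, and the median went from -0.42 to 0.15. Of all genes 1.77% narrowed, 1.29% widened and 1.67% appeared. Both FGFR3-high libraries lay above NCI-H929 EV in 38 of the 41 (37.0% of all genes), by a median of 1.09, and both CCND2-high libraries above MM.1S EV in 29 (31.6% of all genes), by 0.49.

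OASL, of the oligoadenylate synthetase family, had 1.53 and 1.01 FPKM in NCI-H929 EV and 16.2 and 2.42 in FGFR3-high, which differed widely, and at most 0.369 elsewhere. Its change passed in the replicate 1 libraries (2.92 ± 0.32, limma adjusted p = 0.0295). ISG15, a ubiquitin-like protein, was kept at 2.44 ± 0.15 and 2.78. GBP1, a guanylate-binding protein, was kept on the MM.1S side at -3.43 ± 0.14 and -3.64, as was HERC6 at -1.09 ± 0.15 and -1.98. The core of the interferon response element (GAAA, any 2 bases, GAAA) was in 19 of 35 promoters of the list (54.3%) and 2.5% of those of genes tested. By class it was in 8 of 161 appeared (5.0%), 3 of 113 widened (2.7%), 10 of 142 narrowed (7.0%) and 43 of 1516 kept genes (2.8%). These classes overlap the list.

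**Figure D4:**
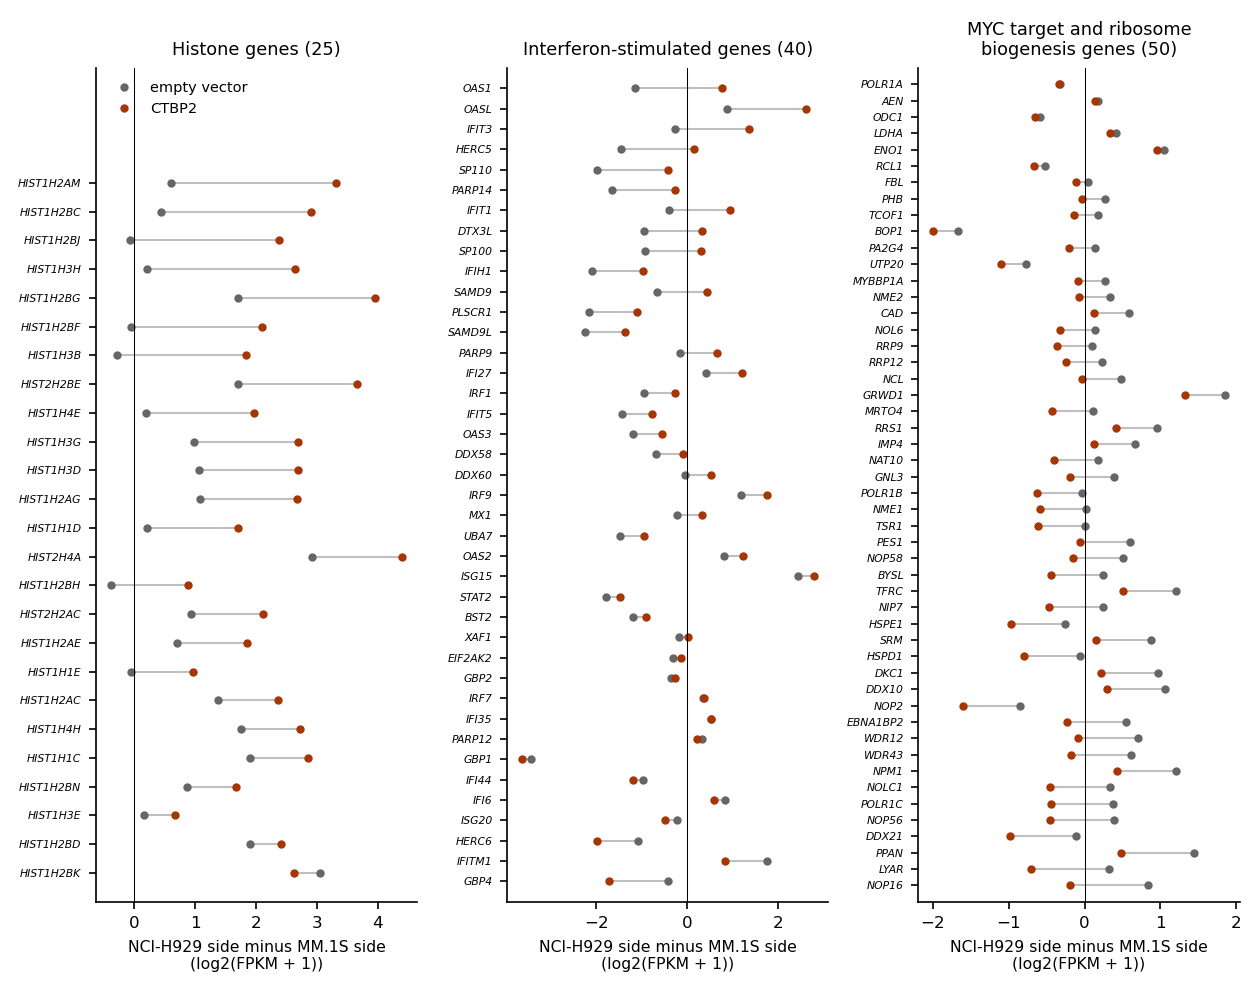
Line difference in log2(FPKM + 1) of tested members of 3 lists (1 interferon-stimulated gene is not drawn), with empty vector and under CTBP2. It is higher under CTBP2 in 24 of 25 histone and 33 of 41 interferon-stimulated genes and lower in 50 of 50 MYC target and ribosome biogenesis genes.

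Some markers of other cell types differed between the CTBP2 sides, in both directions. Of 18 T and NK cell markers 14 were below 1 FPKM in all 8 libraries, with CD8B and GZMA at 0 and CD3D at most 0.214, and their sum was 1.9 to 5.7 FPKM in EV, 7.2 and 4.9 in CCND2-high and 21.9 and 64.0 in FGFR3-high. CD3E, a chain of the T cell receptor complex, had 16.7 and 53.1 FPKM in FGFR3-high and 0.527 to 4.76 in the other 6, and the cytotoxic protease gene GZMB 2.17 and 6.62 and at most 0.429. CD7 went the other way, with 0 and 0 FPKM in FGFR3-high and 1.08 and 1.27 in CCND2-high. Of 16 myeloid markers 13 were below 1 FPKM in all libraries, with FCGR3B and FCN1 at 0, and the sum ran from 12.6 to 24.6 in EV and from 18.7 to 46.0 under CTBP2. CD68 was higher in FGFR3-high (44.5 and 30.4 FPKM) than in CCND2-high (21.9 and 13.5). S100A9 was lower there, with 0.361 and 0.461 FPKM against 4.52 and 2.25. ITGAM, the integrin alpha M chain, had 4.14 and 2.21 FPKM in CCND2-high and at most 0.917 in the other 6, and its change passed (-1.93 ± 0.21, limma adjusted p = 0.0295).

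Epithelial and stromal markers summed to 463.0 to 579.0 FPKM on the NCI-H929 side and 22.7 to 58.2 on the other. Most was VIM, the filament protein vimentin, with 52.7 and 53.5 FPKM in MM.1S EV, 16.6 and 22.7 in CCND2-high, 503.1 and 439.1 in NCI-H929 EV and 539.8 and 484.2 in FGFR3-high. EPCAM went the other way at low values, with 1.17 and 1.27 FPKM in CCND2-high and 0.291 and 0.18 in FGFR3-high. The part of these markers in the results was not tested.

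**Figure D5:**
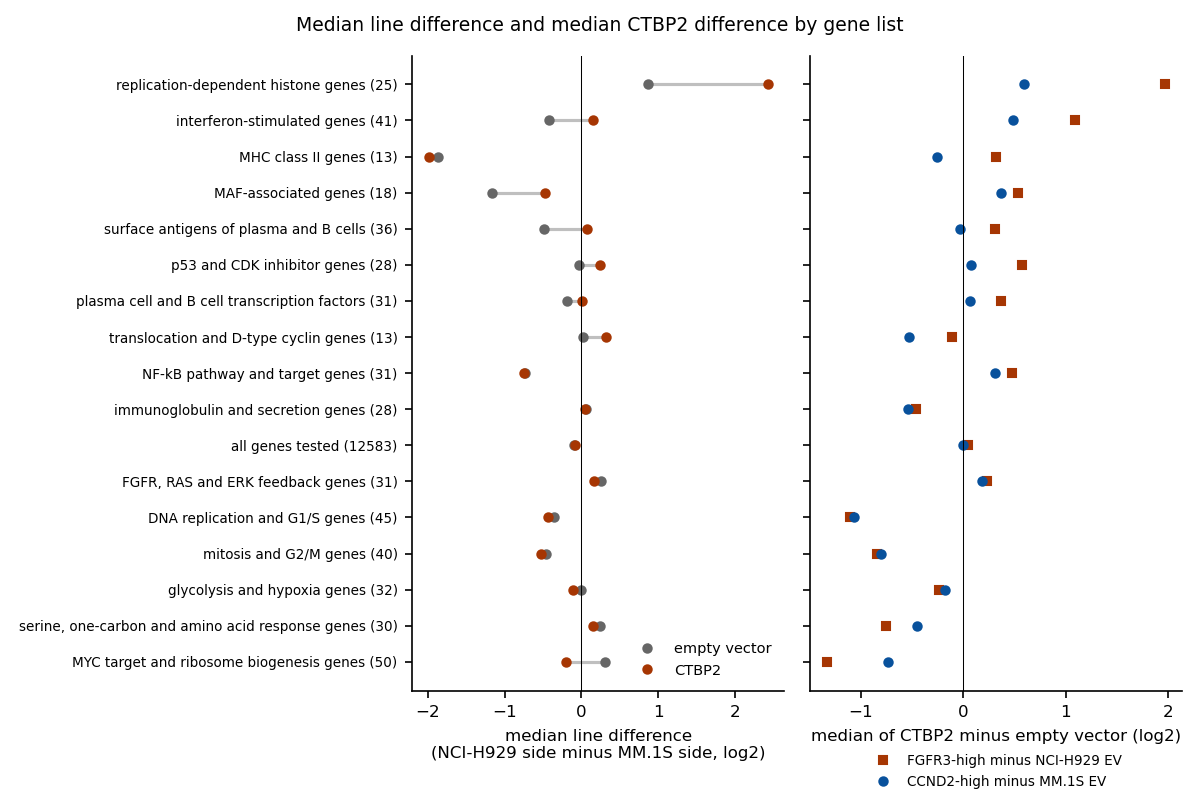
Left, the median line difference with empty vector and under CTBP2 over the tested members of each gene list of which at least 80% passed the filter. The translocation list holds FGFR3 and CCND2. Right, the median of CTBP2 minus empty vector on each side. On the FGFR3-high side histone genes have the highest plotted median (1.97) and MYC target and ribosome biogenesis genes the lowest (-1.33).

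Of 36 surface antigens 16 (44.4%) were kept (16.0% of all genes), 4 narrowed and 1 widened (1.77% and 1.29% of all genes). The tetraspanin CD81 had 56.6 and 55.5 FPKM in NCI-H929 EV, 39.2 and 34.7 in FGFR3-high and at most 0.342 elsewhere. Of 18 HOX and homeobox genes that passed the filter, of 44, 9 were kept, 1 narrowed and 1 widened (16.0%, 1.77% and 1.29% of all genes). A gene can pass that filter through one line alone. Without the filter the median of 40 members was 0.01 with EV and 0.02 under CTBP2. PITX1 was kept at -2.35 ± 0.15 and -3.30. Of 24 CTBP and corepressor genes 3 (12.5%) were kept, including KLF3, which recruits CTBP proteins (-3.27 ± 0.14 and -2.65). Of 28 immunoglobulin and secretion genes 6 (21.4%) were kept, such as SEL1L, of endoplasmic reticulum quality control (1.01 ± 0.19 and 1.86). Of 30 serine, one-carbon and amino acid response genes 5 (16.7%) were kept, 1 narrowed and 1 appeared, with the stress gene DDIT4 kept (3.50 ± 0.24 and 3.10) and the secreted stanniocalcin STC2 narrowed (3.54 ± 0.24 and 2.20). The kept shares of these last 3 lists lie near that of all genes. The change of STC2 in the replicate 1 libraries did not pass (-0.98 ± 0.41).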

How the data were processed

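Libraries were made from total RNA with a TruSeq RNA kit, per the labels' protocols. The FPKM of 25906 genes were used as the authors deposited them. Software listed in the submitters' processing notes, in no stated order, is STAR 2.6.0b-1, HTSeq 0.9.1, DESeq2 2.11.40.2, Trimmomatic 0.36.5 and FastQC 0.11.7, with GRCh37 (hg19) as the build. How FPKM were made, and from which annotation, is not stated there. FPKM scale by length, so values of short RNAs are erratic. The 7 unnamed columns of the table were left out.

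Genes needed 1 FPKM or more in 2 or more libraries (12583). Limma 3.58.1 (R 4.3.3, eBayes with trend) had 2 residual and 4.78 prior degrees of freedom, and FGFR3 and CCND2 stayed in the fit and in the counts over all genes. The pseudocount of 1 understates changes of low genes. Depth was estimated from steps between low FPKM: 49.5 to 56.8% came out whole within 0.1 of a fragment (20% by chance), too few to recover counts. P-values measure only the spread between these libraries.

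On simulated data of 12583 genes, differences of 1, 2 and 4 (log2) were put into 70, 70 and 60 genes and the rest left unchanged. EV line differences were recovered in 37.1, 82.9 and 100% of these genes, and changes of that size in 0, 34.3 and 76.7%. In the data limma called 54.5% of genes with EV, so the adjusted threshold for EV differences was stricter in the simulation. The EV shares therefore do not carry over to the data.

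Members, gene lists and naming rule were chosen with earlier results of these data known. Named were fixed line genes, up to 6 genes per class and direction by size of the difference or its change (highest group mean 5 FPKM or more, no clone-style or short RNA names) and up to 4 per list by the CTBP2 difference. SDC1 and TNFRSF17 check plasma cell identity. Alternatives were the pseudocount, filters, rescalings, the variance trend, a replicate block, the labels as given and each library left out. A few list members are counted but not reported here.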

Additional observations from a re-analysis of the deposited data

Results flagged for a closer look

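The line difference changed with CTBP2 in 13 named genes by limma's test of the interaction in the replicate 1 libraries, given as NCI-H929 minus MM.1S, CTBP2 minus EV, in log2. The change was upward in CASP1 (2.82, adjusted p = 0.02), HBD (3.38, adjusted p = 0.0146) and CD70 (2.62, adjusted p = 0.0451), whose differences were smaller under CTBP2. The change was also upward in CTSZ (2.47, adjusted p = 0.0415) and GPRC5D (3.41, adjusted p = 0.0295), whose differences changed sides. That of CTSZ went from -2.30 with EV to 0.53 under CTBP2. The change was upward too in ASB2 (2.24, adjusted p = 0.043), NTF3 (2.01, adjusted p = 0.0268) and OASL (2.92, adjusted p = 0.0295), which widened, and in CD1A (3.05, adjusted p = 0.00586), HSPA7 (1.68, adjusted p = 0.046) and HLA-DQB1 (1.72, adjusted p = 0.046), which appeared, the last named after its value was seen. It was downward in UBD (-4.41, adjusted p = 0.00338), which widened, and in ITGAM (-1.93, adjusted p = 0.0295), which appeared. With any 1 EV library left out none of the 13 passed, with limma adjusted p-values of 0.0562 to 0.339.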

How the results depend on the processing

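The number of called changes of the line difference, 44, moved by more than 1.5 times with several settings. It was 16 with a pseudocount of 0.1, 649 without a filter, 19 with a filter of 5 FPKM, 130 with equal library totals, 19 without a variance trend, 374 with a replicate block and 0 to 14 with 1 library left out. EV replicate numbers did not pair the EV libraries between lines (r of deviations 0.027). Pairing of EV with CTBP2 libraries within a line was not tested. With all 8 libraries taken as labelled, calls numbered 5 with EV (6860 as reported), 1 under CTBP2 (4970) and 2 for the change, and a split by label left 50 genes apart (3066). Under those labels the change reversed in NTF3 (-1.23), ASB2 (-3.59), UBD (0.02), HSPA7 (-0.78), WHSC1 (-1.43) and MYC (0.92).

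A minimum log2 difference of 1 gave 3070 calls with EV and 3275 under CTBP2, and a difference of at least 2 left 817 genes apart. Leaving out 1 library gave 3916 to 6862 EV calls, 3108 to 3599 CTBP2 calls, 3058 to 3238 genes apart, 1826 to 2090 kept, 186 to 365 narrowed (365 without NCI-H929 CTBP2 replicate 1, 349 without NCI-H929 EV replicate 2), 103 to 212 widened (103 and 107 without MM.1S EV replicate 1 and 2) and 199 to 386 appeared genes (316 and 386 without CTBP2 replicate 1 of MM.1S and NCI-H929). A pseudocount of 0.1 gave 642 narrowed and 276 widened genes. Widened genes numbered 107 without a filter and 100 with 5 FPKM, and appeared ones 88 with 5 FPKM and 90 by separation of EV libraries, an alternative chosen after seeing the data.

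Equal totals moved the EV median of all genes from -0.102 to -0.27 and the share of EV calls higher in NCI-H929 from 43.4 to 32.1%. The share of narrowed genes higher in NCI-H929, 33.6%, was 44.1% after quantile normalization and 14.2% with equal totals, and the FGFR3-high share of appeared genes went from 73.3 to 87.3% with equal totals. The cause was not tested. With 1 CTBP2 library a line in the tests, small changes could not be called.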
